A study of Homo sapiens with 8 samples.

Results

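The 5 genes described here, TOB1, TOB2, BTG1, BTG2 and BTG3, belong to the TOB and BTG antiproliferative family, and they were taken from the 20037 protein-coding genes of the RefSeq table. For each gene, every RFX7 interval of either deposited list was collected whose midpoint lay inside the gene or within 50 kb of either end. The study mapped where RFX7, a transcription factor of the RFX (regulatory factor X) family, sits on chromatin. The assay was ChIP-seq, and the cells were U2OS, an osteosarcoma line that keeps wild-type p53. Cells received Nutlin-3a at 10 µM or the solvent DMSO for 24 h, and Nutlin-3a stabilises p53 by blocking its binding to MDM2. Each treatment had 2 RFX7 immunoprecipitations, made with 3 µg of antibody, and 2 input libraries. The deposited values are 1 merged list per treatment, with 213 intervals after DMSO and 304 after Nutlin-3a. Replicate errors therefore do not exist for these values, and sequencing depth is unknown. The genes were selected on the presence and strength of RFX7 intervals in these lists, so counts and ranks are given as a description with no test. Peak lists hold no expression values, so the identity of the cells could not be checked against marker genes.

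Proteins of this family share an N-terminal BTG/TOB domain that binds the CNOT7 and CNOT8 deadenylases of the CCR4-NOT complex, and raised levels of these proteins slow cell division. TOB1 and TOB2 also carry C-terminal motifs that bind the poly(A)-binding protein, which brings the deadenylase to the tail of the messenger RNA. BTG2 is an immediate early gene and a classical target of p53, BTG1 is its closest relative, and BTG3 is a further member that binds the same deadenylases.

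The DNA before the gene starts is shown first, because RFX proteins recognise the X-box, an inverted repeat of a half-site, and the promoters are the only stretches of these loci whose sequence was used here. RefSeq windows on GRCh38.p14, from 250 bases before to 50 bases after a start site, matched all 5 members and numbered 6, since TOB1 has 2 start sites. The half-site GTTGCNA was searched on both strands and is set in capitals below, so that TNGCAAC is its reverse complement. Only the 250 bases before each start are printed, 5′ to 3′ on the strand of the gene. The 2 member windows that hold a match are shown, followed by that of BTG2, the member with the highest-ranked interval in the Nutlin-3a list.
TOB1, first start, chr17:50867979-50868228, minus strand: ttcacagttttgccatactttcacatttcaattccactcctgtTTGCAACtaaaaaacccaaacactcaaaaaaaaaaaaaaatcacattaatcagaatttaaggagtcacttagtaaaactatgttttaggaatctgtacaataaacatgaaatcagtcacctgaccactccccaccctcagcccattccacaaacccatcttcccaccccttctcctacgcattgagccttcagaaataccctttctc
TOB2, chr22:41446802-41447051, minus strand: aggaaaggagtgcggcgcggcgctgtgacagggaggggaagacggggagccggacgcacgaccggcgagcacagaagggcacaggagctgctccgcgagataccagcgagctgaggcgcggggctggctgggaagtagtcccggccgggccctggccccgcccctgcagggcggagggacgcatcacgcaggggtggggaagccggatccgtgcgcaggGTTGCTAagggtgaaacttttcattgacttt
BTG2, chr1:203305269-203305518, plus strand: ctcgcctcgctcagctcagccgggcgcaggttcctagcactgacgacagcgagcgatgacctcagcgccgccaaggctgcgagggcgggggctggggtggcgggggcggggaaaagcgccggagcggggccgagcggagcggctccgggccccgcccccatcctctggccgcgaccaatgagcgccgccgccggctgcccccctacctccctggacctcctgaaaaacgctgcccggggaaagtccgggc

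In the TOB2 window the match was GTTGCTA, and its first base lay 31 bases before the start. The upstream TOB1 window held TTGCAAC, with its first base 207 bases before the start. GTTGCNA was thus in 2 of the 6 member windows, which belong to 2 of the 5 members. It occurred in 3233 of all 35116 promoter windows, a share of 9.21%. GTTGCTA, which GTTGCNA includes, was in 2.85% of all windows and in that of 1 member, TOB2. No member window held GTTGCCA (4.08% of all windows, also included in GTTGCNA) or GTTACCA (2.14%). The full palindrome, in which GTTGCCA is followed by its reverse complement, was in 0.0285% of all windows and in no member window. A half-site and its inverted partner separated by 0 to 3 bases, a pair that takes in the palindrome, was in 0.0626% of windows and again in none of the members'. The p53 half-site consensus, matched without mismatches, was in 6.63% of all windows and in 0 of the 6. A missing match says only that these letters are not in the window. The TOB2 match was counted again in the window of LOC105373043, a non-coding gene that starts on the opposite strand at chr22 position 41446945, because both windows cover those bases.

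None of the 6 member windows overlapped an RFX7 interval of either list. The nearest Nutlin-3a interval was separated by 107 bases from the upstream TOB1 window, by 377 from the downstream one, by 1191 from the TOB2 window and by 20545 from the BTG2 window. Of all 35116 windows, 146 overlapped a Nutlin-3a interval and 13 a DMSO interval. The base composition of the members' windows differed widely. GC content was 41.3% at the upstream TOB1 start and 78.7% at the downstream one, 68.7% for TOB2, 56% for BTG1, 73.3% for BTG2 and 77.3% for BTG3, against a median of 58.7% over all windows.

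After Nutlin-3a, 3 of the 5 genes had an interval within 50 kb, namely TOB1, TOB2 and BTG2. The same was true of 589 protein-coding genes, which is 2.94%. In the DMSO list TOB2 and BTG2 had an interval, 2 of 5, against 112 genes or 0.559%. Intervals of both lists lay within 50 kb of TOB2 and BTG2 and of 0.294% of all protein-coding genes. Those 59 genes made up 52.7% of the genes with a DMSO interval and 10.02% of those with a Nutlin-3a interval. Because the family was picked with the lists in view, nothing is read from these shares.

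**Figure D1:**
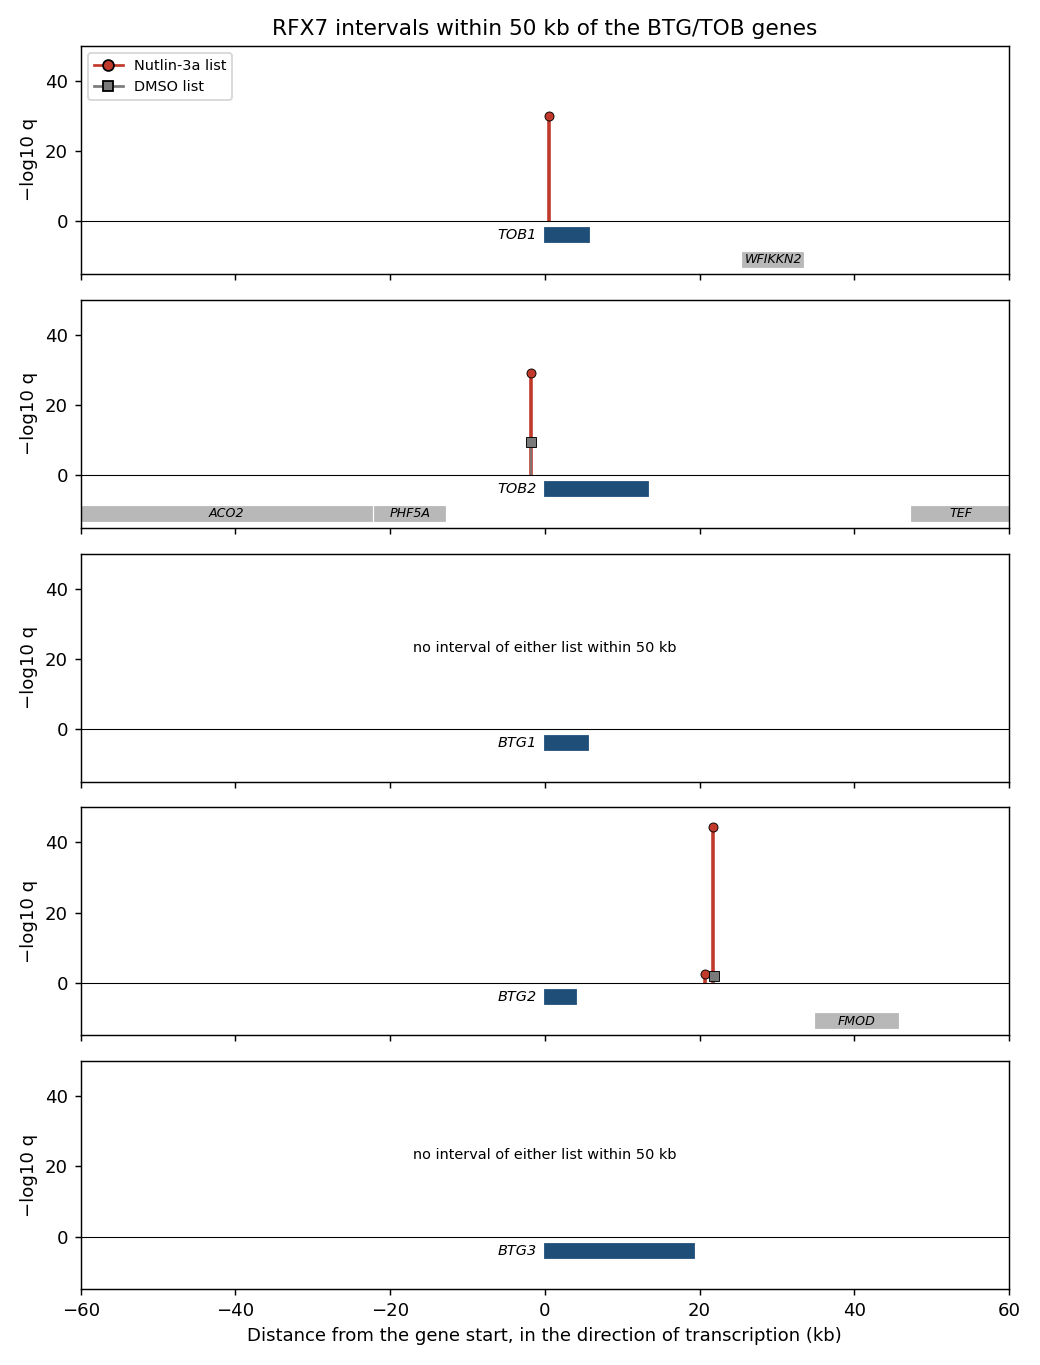
RFX7 intervals around the 5 genes. The horizontal axis is the distance from the gene start in kb, in the direction of transcription, the vertical axis the −log10 q deposited by the authors (circles, Nutlin-3a list; squares, DMSO list), blue bars are the members and grey bars other protein-coding genes near their intervals. Intervals stand just past the upstream start of TOB1, just before TOB2 and beyond the 3′ end of BTG2, and none stands near BTG1 or BTG3.

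In all, 6 rows of the lists fell to the family, 4 from the Nutlin-3a list and 2 from the DMSO list. Both DMSO rows overlapped a Nutlin-3a row, and 2 of the 4 Nutlin-3a rows overlapped a DMSO row. Over the whole lists, 22 sites were found in both, among 213 DMSO and 304 Nutlin-3a rows. Because the family was picked with the lists in view, nothing is read from this overlap. The ranks that follow count from 1 at the highest value within the same list, and tied rows share the best place. Fold enrichment and −log10 q are the authors' values for each interval, and they are not compared in size between lists.

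TOB1 had an interval inside the gene and close to its start, and only after Nutlin-3a. The gene spans chr17:50862223-50867978 on the minus strand. Its interval, at chr17:50866982-50867821, was 840 bp wide, and had a −log10 q of 30.1 at a fold enrichment of 6.98. By −log10 q it ranked 34 of 304 and by fold enrichment 64. Its place was thus lower when fold enrichment set the order. Its midpoint lay 576.5 bp downstream of the upstream start site and 1047.5 bp before the downstream start site at position 50866354. The interval covered neither start and sat between them, from 157 to 996 bp past the upstream start. The antisense non-coding gene TOB1-AS1 (chr17:50866679-50868371) also contains the midpoint, 722.5 bp past its own start, so the interval cannot be given to 1 strand. No protein-coding gene had an end nearer than TOB1. The nearest DMSO interval was 1750773 bp away.

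TOB2 had an interval just before its start in both lists. The gene lies at chr22:41433494-41446801 on the minus strand. After Nutlin-3a the interval was chr22:41448243-41448914, 672 bp wide, and its −log10 q was 29.1 at a fold enrichment of 7.57. It ranked 41 of 304 by −log10 q and 45 by fold enrichment. In the DMSO list the interval was chr22:41448487-41448674, 188 bp wide, and its −log10 q was 9.50 at a fold enrichment of 4.81. It ranked 5 of 213 by −log10 q and 3 by fold enrichment, so TOB2 stood near the top of that list on either measure. The DMSO interval lay wholly inside the Nutlin-3a interval, 244 bp from its lower edge and 240 bp from its upper edge. The midpoints were 2 bp apart, the smallest shift among the 22 sites found in both lists, whose median shift was 153.25 bp. Both midpoints were upstream of TOB2, by 1777.5 bp after Nutlin-3a and by 1779.5 bp after DMSO. The non-coding gene LOC105373043 (chr22:41446945-41448893) was nearer, since both midpoints lay inside it, 314.5 and 312.5 bp from its end. TOB2 had the nearest protein-coding end.

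BTG2 had the highest-ranked interval of the family after Nutlin-3a, far from the gene itself. The gene spans chr1:203305519-203309602 on the plus strand. The interval chr1:203326492-203327942 was 1451 bp wide, and its −log10 q was 44.3 at a fold enrichment of 10.9. It ranked 12 of 304 by −log10 q, 5 by fold enrichment and 7 by width. Its midpoint was 21698 bp past the BTG2 start and 17615 bp past the 3′ end. A second Nutlin-3a row, chr1:203326114-203326281, followed after a gap of 210 bp on the side of BTG2. That row was 168 bp wide and stood near the bottom of the list, at a −log10 q of 2.47 (rank 297) and a fold enrichment of 3.10 (rank 272). Counted from the outer edges, both rows spanned 1829 bp.

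The DMSO interval near BTG2, chr1:203327305-203327527, was 223 bp wide and low in its list. Its fold enrichment was 2.73 and its −log10 q 1.93, which placed it 167 of 213 by −log10 q, 1 of 13 rows tied at that value, and 175 by fold enrichment. It lay inside the wider Nutlin-3a interval but off its middle, 813 bp from the lower edge and 415 bp from the upper edge, with the midpoints 199 bp apart. Among the 22 sites found in both lists, the BTG2 site was the 7th by rank in the Nutlin-3a list and the 22nd, the last, in the DMSO list. The TOB2 site was the 15th and the 5th. The order of these members was therefore opposite in the lists, a description of 1 row each with no error.

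Other genes were closer than BTG2 to all 3 of its rows. The nearest protein-coding gene was FMOD, which encodes the matrix proteoglycan fibromodulin, at chr1:203340628-203351122. Its near end was 13411 bp from the midpoint of the wide Nutlin-3a interval, 14430.5 bp from that of the second row and 13212 bp from that of the DMSO interval. FMOD is read from the minus strand, so these intervals lie beyond the 3′ ends of both genes, and its start was 23905 bp from the wide interval, against 21698 bp for the BTG2 start. The pseudogene RNU6-487P was nearer still, 8119 bp from the wide interval. Were an interval given only to its closest protein-coding gene, BTG2 would have none in either list.

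**Figure D2:**
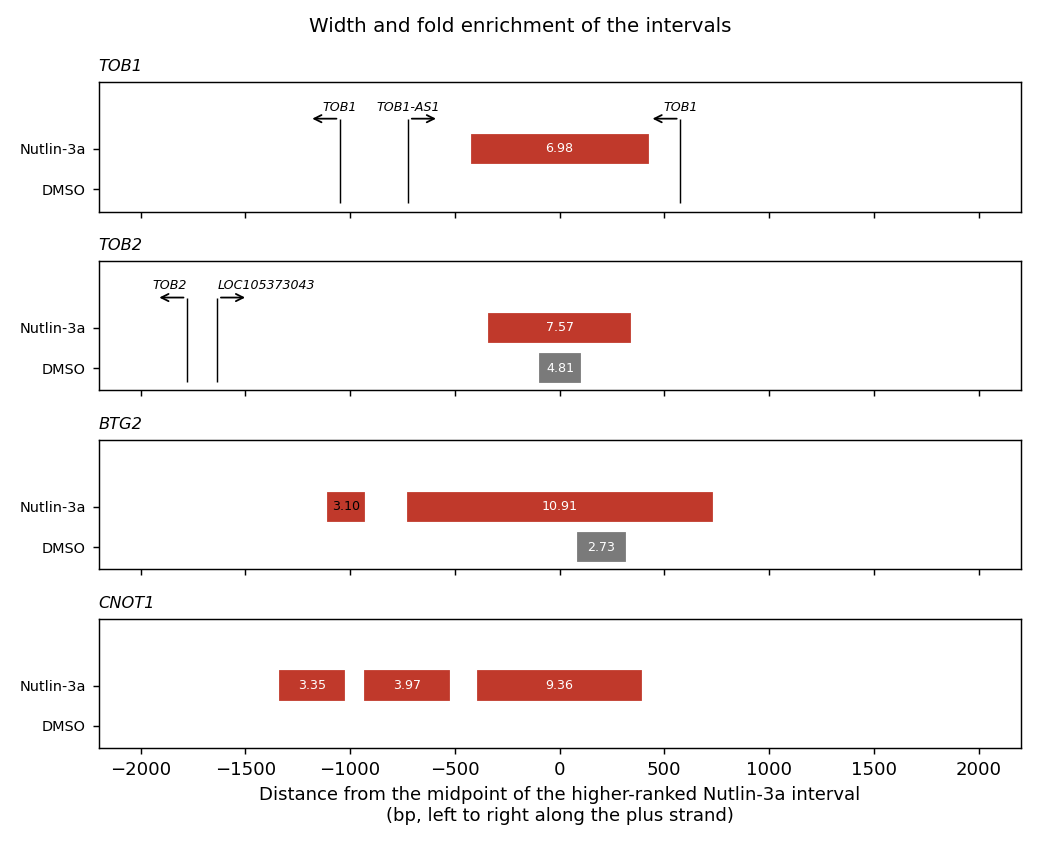
Intervals near TOB1, TOB2, BTG2 and CNOT1 drawn to scale. The horizontal axis is the distance in bp from the midpoint of the highest-ranked Nutlin-3a interval at each gene, bars are intervals by list with the authors' fold enrichment printed on them, and arrows are RefSeq start sites of members and of the non-coding genes that contain the midpoint. The DMSO bar is centred in the Nutlin-3a bar at TOB2 and off centre at BTG2, and TOB1 and CNOT1 have no DMSO bar.

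BTG1 and BTG3 had no interval within 50 kb in either list. For BTG1, at chr12:92140278-92145846 on the minus strand, the nearest Nutlin-3a interval was chr12:91381233-91381727, 758798 bp away, with a fold enrichment of 7.19 and rank 52. A Nutlin-3a interval at least as near was found for 22.1% of protein-coding genes. Its nearest DMSO interval was 50321764.5 bp away, and 85.2% of genes had one at least as near. For BTG3, at chr21:17593653-17612901 on the minus strand, the nearest intervals were 15930140 bp away after Nutlin-3a and 10252250 bp away after DMSO. Of all genes, 90.4% and 52.5% had an interval at least that near. The lists report intervals past a threshold, so a gene without a row may still bind RFX7 below it.

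The places of the other members on the same scale are only a description, because the family was picked with the lists in view. After Nutlin-3a, TOB1 was 1 of the 116 genes (0.579%) that contain a midpoint. An interval at least as near as that of TOB2 was found for 200 genes (0.998%), and as that of BTG2, at 16595.5 bp for its second row, for 325 genes (1.62%). In the DMSO list the numbers were 58 genes (0.289%) for TOB2 and 83 genes (0.414%) for BTG2, whereas 13.6% of genes had an interval as near as that of TOB1. No other row lay close to the 50 kb limit. The farthest row inside it was 17814 bp from its gene, the DMSO interval of BTG2. The nearest row outside it was the Nutlin-3a interval 758798 bp from BTG1.

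**Figure D3:**
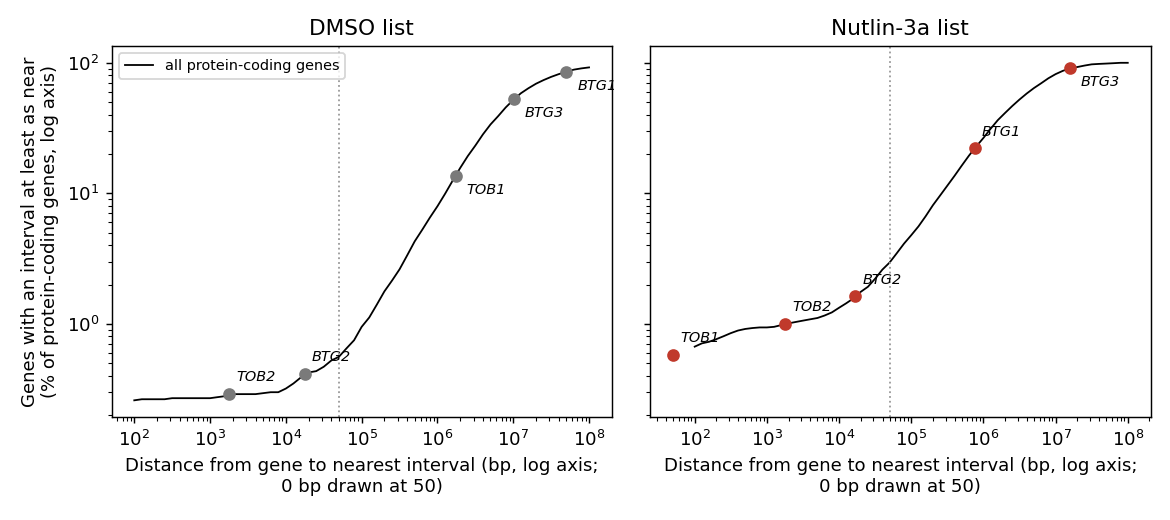
Distance from each member to its nearest interval, set against all protein-coding genes. The horizontal axis is the distance in bp (log axis, 0 bp drawn at 50), the vertical axis the percentage of protein-coding genes with an interval at least as near (log axis), the line all genes, the points the members and the dotted line 50 kb. TOB2 and BTG2 lie left of the dotted line in both lists, TOB1 in the Nutlin-3a list, and BTG1 and BTG3 in neither.

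The Nutlin-3a intervals of the family were also ranked among those at a like distance from genes. Of the 304 Nutlin-3a intervals, 128 had a midpoint no more than 1 kb from an end of a protein-coding gene. Within that group the TOB1 interval ranked 20 by −log10 q and 32 by fold enrichment. A further 76 lay at 1 to 10 kb, where the TOB2 interval ranked 8 and 9. The remaining 100 lay farther than 10 kb from any protein-coding end, and among these the wide BTG2 interval ranked 4 by −log10 q and 2 by fold enrichment. The second BTG2 row ranked 95 and 91 in the same group. The medians of these 3 groups were 11.4, 9.35 and 9.27 for −log10 q and 5.26, 4.47 and 4.53 for fold enrichment. The highest-ranked interval of each of TOB1, TOB2 and BTG2 was thus above the median of its own group on both measures. The second BTG2 row was below both medians. Because the genes were selected on the strength of their intervals, nothing is read from these places.

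The widths were also ranked within each list. The Nutlin-3a list had a median width of 339.5 bp, and the BTG2, TOB1 and TOB2 intervals ranked 7, 31 and 53 by width, with the second BTG2 row at 284. Among DMSO rows, whose median width was 194 bp, the BTG2 interval ranked 59 and the TOB2 interval 119. The Nutlin-3a interval was 6.51 times as wide as the DMSO interval at BTG2 and 3.57 times as wide at TOB2. The median of this ratio over the 22 sites was 4.27, with BTG2 the 5th and TOB2 the 19th largest. Called width moves with depth, which is unknown, and its part in these ratios was not tested.

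**Figure D4:**
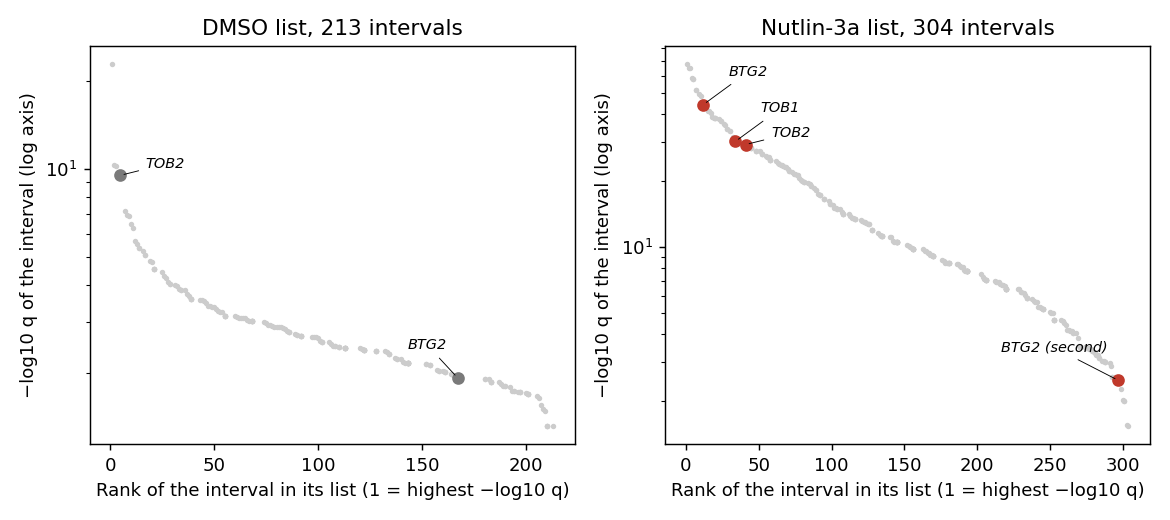
The −log10 q of every interval (vertical log axis, the authors' values) against its rank in its own list (horizontal axis), with the 213 DMSO intervals on the left and the 304 Nutlin-3a intervals on the right. Grey points are all intervals and coloured points those of the family. BTG2 ranks 12 after Nutlin-3a but 167 after DMSO, TOB2 ranks 41 and 5, and TOB1 ranks 34 after Nutlin-3a only.

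Genes with a similar pattern were sought by the difference in rank of their best Nutlin-3a interval, among genes that were the closest protein-coding gene to that interval and had the same presence or absence in the DMSO list. Likeness was therefore judged over 2 lists only. For TOB1, 196 genes qualified, and 4 of them, ATRX, CKS2, TP53INP1 and TSPYL2, were tied as the closest, 1 place lower at rank 35. The first 2 by name were kept: ATRX is a chromatin remodeller and CKS2 a subunit of cyclin-dependent kinases, and their intervals were 103.5 and 139.5 bp from a gene end. For TOB2, 20 genes qualified, and the closest were AZIN1, an antizyme inhibitor, at rank 44 and PIK3R2, a regulatory subunit of phosphoinositide 3-kinase, at rank 45. Those intervals were 15202.5 and 4141 bp from the ends of their genes. For BTG2, the closest of 20 genes was FMOD with a difference of 0, because it is the same interval. RFX5, another member of the regulatory factor X family, came next at rank 11, with an interval 26 bp from a gene end.

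A list of 17 further genes, written from general knowledge and called partners here, was also counted. It held BTG4, the family member known from oocytes, 11 subunits of the CCR4-NOT complex, the poly(A)-binding proteins PABPC1 and PABPC4, the PAN2 and PAN3 deadenylase subunits and the arginine methyltransferase PRMT1. After Nutlin-3a, 1 of the 17 (5.88%) had an interval within 50 kb, against the 2.94% of all protein-coding genes given above, and in the DMSO list 0 of 17 had one, against 0.559%. A count of 1 in 17 is near the background. The gene was CNOT1, the scaffold of the CCR4-NOT complex, at chr16:58519951-58629826. It had 3 neighbouring Nutlin-3a rows over 1722 bp at its upper end. The row chr16:58629679-58630455 had its midpoint 241 bp outside the gene, a −log10 q of 38.4, rank 20 of 304, and a fold enrichment of 9.36. Inside the gene, chr16:58629139-58629538 ranked 220 and chr16:58628734-58629037 ranked 271. This layout of a high row beside lower ones resembled that at BTG2, with gaps of 140 and 101 bp. How often such a layout occurs elsewhere in the Nutlin-3a list is not given here, so nothing is read from the likeness.

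Among the partners without an interval, PAN2 was just outside the limit, 50028.5 bp from a Nutlin-3a interval at rank 58. BTG4 was 10157234 bp from the nearest Nutlin-3a interval and 2199167.5 bp from the nearest DMSO interval. The median distance of the 17 partners to a Nutlin-3a interval was 4217286 bp, against 16595.5 bp for the 5 members. That median was 2878734 bp for protein-coding genes on chromosomes that hold a Nutlin-3a interval. The member value is the distance from BTG2 to its second row, at rank 297. The members were picked with the lists in view, so nothing is read from their medians. For the DMSO list the medians were 6556388 bp for the partners and 1750773 bp for the members. It was 8167107 bp for protein-coding genes on chromosomes that hold a DMSO interval. The shares of genes given further above count the genes of all chromosomes.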

How the data were processed

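RFX7 ChIP-seq and input DNA of U2OS cells were profiled after DMSO and after Nutlin-3a, in 2 replicates each. The lists analysed hold merged rows without replicate values, and the per-sample depth is unknown. The submitters' processing notes name hg38, bcl2fastq 2.20.0.422, Trimmomatic 0.39, FastQC 0.11.9, cutadapt 2.10, SAMtools 1.10, Picard, MACS2 2.2.7.1 and bedtools 2.29.2. The aligner, the calling settings and the merging of replicates are not given in the sources used here. The fold enrichment is a ratio deposited by the authors for each interval, and the −log10 q values are also deposited by the authors. The score deposited by the authors repeats the −log10 q, multiplied by 10 and cut to a whole number, and was not used. No row gave a summit, so midpoints were used.

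Genes and promoter windows came from RefSeq GRCh38.p14, and all 5 members and 17 partners matched. Exons and introns were not assigned. Distances were computed in Python 3.11.15 with pandas 2.3.3 and checked on simulated intervals. Shares of windows carry 95% Wilson intervals where printed, which cover counting error only. Named genes were the members, genes nearer to their intervals, partners with an interval, and the 2 genes closest in rank per member, with ties for TOB1 named as well. PAN2, just outside the limit, and BTG4 were named after their values were seen. Members and lists were chosen with earlier results of these data known. Alternatives changed the distance, the rows kept, the position used, the assignment of intervals, the overlap, the rank column and the motif.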

Additional observations from a re-analysis of the deposited data

How the results depend on the processing

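Of 60 recomputed counts, 37 stayed within 1.5 times the reported number. They include the DMSO count of partners, which was 0 under every alternative run. By this measure a fall from 3 to 2 stays within the limit and a fall from 2 to 1 does not, although either can be the loss of BTG2. Limiting the distance to 5 kb or 10 kb, or giving an interval only to the nearest protein-coding gene, removed BTG2 by construction: members with a DMSO interval then numbered 1, their rows 1 after DMSO and 2 after Nutlin-3a, and rows listed in both 1. Rows at or above the median −log10 q of their list gave 1 member with a DMSO interval, 1 such row and 1 listed in both, because the BTG2 row fell below it. At a −log10 q of at least 10 these 3 counts were 0, and rows listed in both were also 0 when 50% of both intervals had to overlap. Members with a Nutlin-3a interval numbered 3, or 2 under the alternatives that removed BTG2. Partners with a Nutlin-3a interval rose to 2 within 100 kb and by the nearest edge, which added PAN2. The share of all protein-coding genes moves with the distance too. For the Nutlin-3a list it was 1.11% within 5012 bp, 1.33% within 10 kb and 4.77% within 100 kb. For the DMSO list these shares were 0.294%, 0.319% and 0.948%. Members with a promoter half-site fell from 2 to 0 with GTTGCCA only and with the half-site pair. Ranking by fold enrichment changed all 6 ranks, and no error is known for them. In the Nutlin-3a list TOB1 went from 34 to 64, TOB2 from 41 to 45, and the BTG2 rows from 12 to 5 and from 297 to 272. In the DMSO list TOB2 went from 5 to 3 and BTG2 from 167 to 175. No paired analysis was possible because the rows carry no replicate values, and leaving out replicates was not run for the same reason. The unknown depth limits what presence or absence of a row says between treatments.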

Other observations

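Promoter windows lying wholly inside a Nutlin-3a interval numbered 43, none of them of a family member. GTTGCTA was in 11 of these (25.6%, 95% Wilson interval 14.9 to 40.2%), against 2.85% of all windows. GTTGCNA, which includes it, was in 12 (27.9%, 16.7 to 42.7%), against 9.21%. GTTGCCA was in 0 (0 to 8.20%), a range that includes its 4.08% of all windows. GTTACCA was in 1 (2.33%, 0.412 to 12.1%), against 2.14%. The p53 half-site was in 3 (6.98%, 2.40 to 18.6%), against 6.63%. The full palindrome and the half-site pair were in 0 of the 43 windows. Some of these windows overlap each other at alternative or opposite starts, so they are not independent. The TOB2 window holds GTTGCTA, but its nearest interval lies 1191 bases away.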
